A study of Mus musculus with 35 samples.

Results

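The transcription regulators described here are 9 genes known for setting or keeping the fibre type of skeletal muscle: Tead1, Sox6, Eya1, Six4, Mef2a, Mef2c, Mef2d, Nfatc1 and Tbx15. They were chosen by name, as the array rows annotated with exactly one of these symbols, and are 9 of the 19938 genes measured by a row with a single symbol. Together they have 11 of the 35556 array rows, because Tead1 and Mef2d have 2 rows each; the row with the higher mean over all 35 arrays stood for the gene, and the other row is given beside it. RNA of quadriceps muscle was hybridised from female mice aged 2 months, 1 mouse per array, in 4 classes: Mstn-null mice, which lack myostatin, mice given 1 dose of ActRIIB-Fc, mice given 4 doses of ActRIIB-Fc, and control mice. ActRIIB-Fc joins the ligand-binding part of an activin receptor to an antibody Fc part, circulates, and binds myostatin and related ligands outside the cell. Experiment 1 held 3 mice of each class, and experiment 2, an independent repeat, held 8 Mstn-null mice and 5 mice of each other class. The sources used here do not name the strain, the dosing interval or what the control mice received.

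Fibres of adult muscle are slow or fast according to the myosin and metabolic genes they express, and quadriceps is a mostly fast muscle. Calcineurin, activated by calcium, sends NFAT factors into the nucleus, where they act with MEF2 factors on slow-fibre genes. Six4 and its relatives with their Eya cofactors, Tbx15 and Sox6 act on the fast side, Sox6 by repressing slow-fibre genes, and Tead1 binds the MCAT element found in promoters of slow and other contractile genes. The slow program in turn carries miR-208b and miR-499, microRNAs lodged in slow myosin genes, for which Sox6 is a known target.

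The sequences of these microRNAs and of a pair of promoters give the letters behind those links. The mature microRNAs are printed with the seed, bases 2 to 8 counted from the 5′ end, in capitals (RefSeq, GRCm38.p6). The seeds of miR-208a and miR-208b are the same, and that of miR-499 differs from them only in its last base, U in place of G. The mature sequences lie, in the order printed, at chr14:54949072-54949093 on the minus strand, chr14:54975710-54975731 on the minus strand and chr2:155622893-155622913 on the plus strand.
mmu-miR-208a-3p: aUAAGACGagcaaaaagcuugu
mmu-miR-208b-3p: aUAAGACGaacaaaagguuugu
mmu-miR-499-5p: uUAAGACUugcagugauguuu

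RefSeq promoter windows of 300 bases, mostly upstream of a gene's start, were searched on both strands for the MCAT letters CATTCC. These letters are given in full because Tead1, in its higher row, was the member with the greatest change from control in all 3 comparisons. Windows were used for 5 members (Mef2a, Mef2c, Mef2d, Six4 and Sox6), 13 in all. They were also searched for E-box, NFAT and MEF2 letters, which stand in 72.3%, 61.3% and 3.19% of all promoter windows. MEF2 letters stood in the Mef2a window and in 1 of 6 Sox6 windows. MCAT letters stood in 2 of 6 Sox6 windows, in 1 of 3 Mef2c windows and in none of the 4 windows of Mef2a, Mef2d and Six4. Of all 32851 promoter windows 14.7% hold them, so a match is a description and not a site. The first listed window of each of the 2 genes is shown 5′ to 3′ on the gene's strand with the match in capitals, read there as GGAATG: Sox6 at chr7:116038695-116038994 on the minus strand, and Mef2c at chr13:83503784-83504083 on the plus strand (GRCm38.p6).
Sox6 promoter: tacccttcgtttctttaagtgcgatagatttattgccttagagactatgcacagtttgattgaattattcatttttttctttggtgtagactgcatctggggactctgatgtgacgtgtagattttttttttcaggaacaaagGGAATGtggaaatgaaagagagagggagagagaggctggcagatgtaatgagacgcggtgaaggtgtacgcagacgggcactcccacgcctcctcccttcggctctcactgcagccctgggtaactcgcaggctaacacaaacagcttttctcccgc
Mef2c promoter: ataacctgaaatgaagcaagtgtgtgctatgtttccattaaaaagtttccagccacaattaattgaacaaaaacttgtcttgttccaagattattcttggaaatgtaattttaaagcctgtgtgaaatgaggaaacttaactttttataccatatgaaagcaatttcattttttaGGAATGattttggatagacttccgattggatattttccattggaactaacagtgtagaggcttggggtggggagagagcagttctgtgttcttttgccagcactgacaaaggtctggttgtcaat

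All values below are log2 intensities as the authors normalised them, and a difference of 1 is a change of 2-fold. The experiments sat on different scales, since array medians were 4.39 to 4.52 in experiment 1 but 6.06 to 6.27 in experiment 2, and classes were compared within experiments or with experiment as a term of the fit. A gene was called where limma's p, adjusted over all 19938 genes, was under 0.05. Myostatin itself, Mstn, averaged 6.14 ± 0.48 in Mstn-null against 7.35 ± 0.50 in control muscle of experiment 1 (SD, n = 3 each), and 7.25 ± 0.49 (n = 8) against 10.03 ± 0.16 (n = 5) in experiment 2. In Mstn-null against control, 5062 genes were called higher and 3275 lower, but 1476 higher and 4402 lower once each array was centred on its median. The median difference over all genes in that comparison was 0.09 in the deposited values. The interquartile ranges of the Mstn-null arrays over all genes lay below those of the controls, at 2.39 to 2.44 against 2.47 to 2.74 in experiment 1 and at 2.14 to 2.42 against 2.50 to 2.65 in experiment 2. They overlapped the 2.37 to 2.64 of mice given 1 dose and the 2.26 to 2.70 of mice given 4 doses in experiment 2. A covariate for that range overlaps with class here, and calls that end with it are named beside each result. Fewer cells of a type and less RNA per cell cannot be told apart in whole muscle.

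Of the 9 regulators, each read by the row that stood for it, Tead1 fell, and Sox6 and Eya1 rose, in Mstn-null muscle. Tead1 also fell after 1 dose of ActRIIB-Fc, and no member passed after 4 doses. Called members were thus 3 of 9 in Mstn-null against control, where 41.8% of all genes were called (25.4% higher, 16.4% lower), 1 of 9 after 1 dose, where 1.11% were called (0.542% higher, 0.572% lower), and 0 of 9 after 4 doses, where 3.14% were called (1.91% higher, 1.23% lower). How the share of members called in the Mstn-null comparison stood to that of all genes depended on the scaling: 7 of 9 members and 28.8% of all genes were called with quantile normalization within each experiment, 2 of 9 and 29.5% with median centring, and 1 of 9 and 2.99% with the interquartile range covariate. Tead1 was the 1 member under 0.05 before adjustment after 4 doses. Its lower row, tested among all rows with a single symbol, was not called in Mstn-null muscle (-0.13, adjusted p = 0.315). That row was called lower after 4 doses (-0.46, adjusted p = 0.0131). Each of the 3 Mstn-null calls ended with median centring, with the interquartile range covariate or with both. The median difference over the 9 members was 0.14 in Mstn-null muscle, 0.00 after 1 dose and -0.06 after 4 doses, beside 0.09, 0.02 and 0.02 over all genes.

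**Figure D1:**
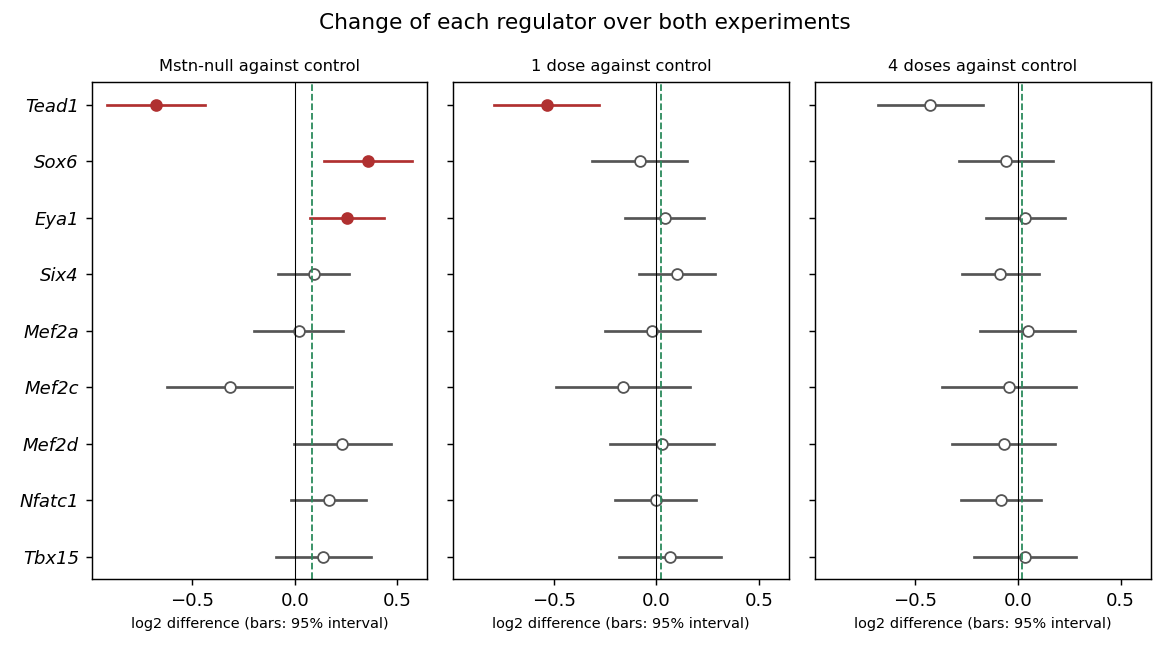
Log2 difference of each regulator from control over both experiments (horizontal axis), with 95% intervals as bars, for Mstn-null, 1 dose and 4 doses. Filled red points passed an adjusted p of 0.05; the dashed green line is the median over all genes. Tead1, by its higher row, lies furthest below 0 in all 3 panels, at -0.68, -0.53 and -0.43.

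**Figure D2:**
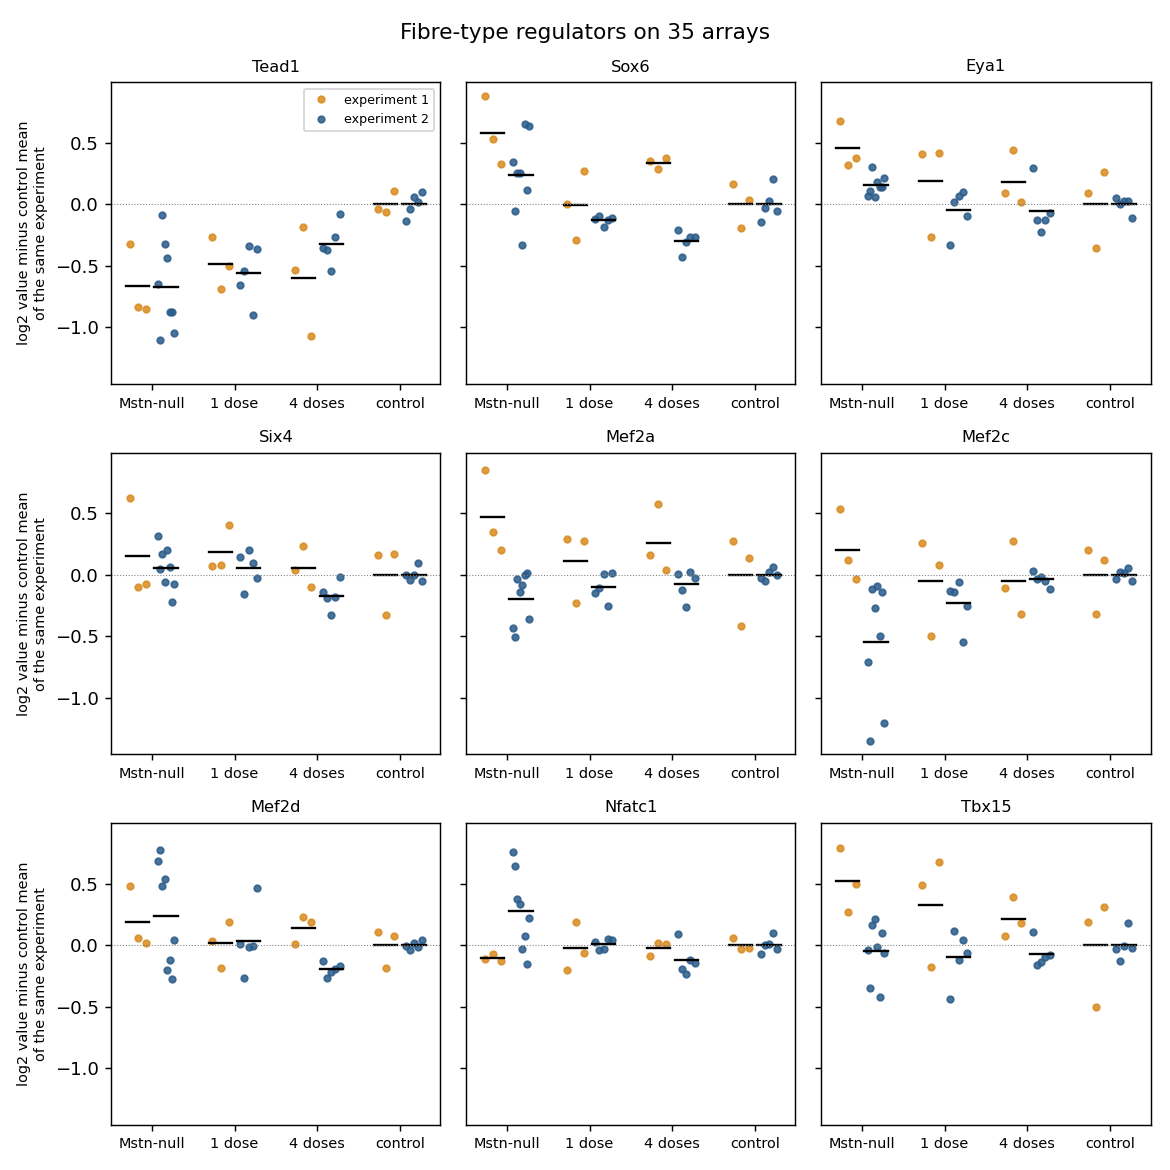
Log2 value of each regulator on every array minus the control mean of the same experiment (vertical axis), by class; orange points are experiment 1, blue points experiment 2 and black bars group means. Tead1, by its higher row, sits below the control mean on all 27 arrays that are not controls, while most other members scatter around it.

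Tead1, a TEA domain factor that binds MCAT elements, was measured in experiment 1 at 8.73, 8.22 and 8.21 in Mstn-null mice, 8.79, 8.37 and 8.55 after 1 dose, 8.52, 8.87 and 7.99 after 4 doses, and 9.01, 8.99 and 9.16 in controls. All 9 arrays of the 3 other classes were below all 3 control arrays. Of all genes, 13.9% lay wholly below control in Mstn-null mice, 4.47% after 1 dose and 7.8% after 4 doses. In experiment 2, Tead1 ranged from 9.78 to 10.80 in Mstn-null mice (median 10.12, n = 8), was 10.23, 10.34, 10.54, 9.98 and 10.52 after 1 dose and 10.52, 10.51, 10.34, 10.62 and 10.80 after 4 doses, and was 10.75, 10.84, 10.94, 10.90 and 10.98 in controls. After 1 dose every array was again below every control, as were 2.94% of all genes. By contrast, 1 of 8 Mstn-null arrays and 1 of 5 arrays after 4 doses reached the control range. Among all genes, 0.391% lay wholly below control in both experiments after 1 dose.

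Over both experiments Tead1 fell by 0.68 ± 0.12 (SE) in Mstn-null muscle (1.60-fold lower, adjusted p = 6.19e-05) and by 0.53 ± 0.13 after 1 dose (1.45-fold lower, adjusted p = 0.0208). After 4 doses the difference was -0.43 ± 0.13, with an adjusted p of 0.0526. It passed, at adjusted p = 0.0324 to 0.0492, when any 1 of 8 arrays was left out: array 2 of experiment 1 or 5 of experiment 2 after 4 doses, array 4 of experiment 2 after 1 dose, or Mstn-null array 1 of experiment 1 or 2, 3, 4 or 8 of experiment 2. Within experiments, the Mstn-null difference was -0.67 in both, with adjusted p = 0.0651 in experiment 1 and 0.000553 in experiment 2. The 1-dose difference was called in neither, at -0.49 in experiment 1 (adjusted p = 0.999985) and -0.56 in experiment 2 (adjusted p = 0.0631). The order of the means was Mstn-null, 4 doses, 1 dose, control from low to high in experiment 1, and Mstn-null, 1 dose, 4 doses, control in experiment 2. In this row none of the 3 lower classes passed a test against another, the interval for 4 doses against 1 dose running from -0.15 to 0.36; with array weights 4 doses against Mstn-null did (0.30, adjusted p = 0.0339). The 1-dose call ended without array 4 of that group in experiment 2 (-0.48, adjusted p = 0.0620) or without array 1 (-0.51, 0.0521). The Mstn-null call ended with the interquartile range of each array as a covariate (-0.31, adjusted p = 0.146).

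The lower row of Tead1 was called lower after 1 dose and after 4 doses over both experiments, but not in Mstn-null muscle. In that row, tested among all 21789 rows with a single symbol, Tead1 fell by 0.54 ± 0.11 after 1 dose (adjusted p = 0.00528) and by 0.46 ± 0.11 after 4 doses (adjusted p = 0.0131), where 1.06% and 3.12% of the rows were called. In Mstn-null muscle its difference was -0.13 ± 0.10 (adjusted p = 0.315), where 42.1% of the rows were called. Its Mstn-null arrays read 8.15, 8.02 and 7.73 against 8.04, 7.69 and 8.03 in controls of experiment 1, and 9.34 to 10.32 (median 9.79, n = 8) against 9.91, 9.87, 10.03, 9.98 and 10.00 in controls of experiment 2. These groups overlapped in both experiments. The higher row minus the lower row shrank in Mstn-null muscle by 0.58, averaged over the experiments (exact permutation of arrays within experiments, two-sided p = 0.00268, 0.00804 after adjustment over 6 such tests). The same quantity moved by -0.02 after 1 dose (exact p = 0.778) and by -0.05 after 4 doses (exact p = 0.771). These averages hide opposite moves in the 2 experiments, of -0.13 and 0.09 after 1 dose and of -0.38 and 0.28 after 4 doses. After 4 doses the lower row differed from control by -0.22 in experiment 1 and by -0.60 in experiment 2, and the higher row by -0.60 in experiment 1 and by -0.32 in experiment 2. Read by its lower row, Tead1 was also lower than in Mstn-null muscle after 1 dose (-0.41, adjusted p = 0.00529) and after 4 doses (-0.33, adjusted p = 0.0233), where 17.8% and 20.7% of the rows were called. The higher row gave 0.14 and 0.25 with no call. The sources used here do not say which part of the transcript each row covers.

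**Figure D3:**
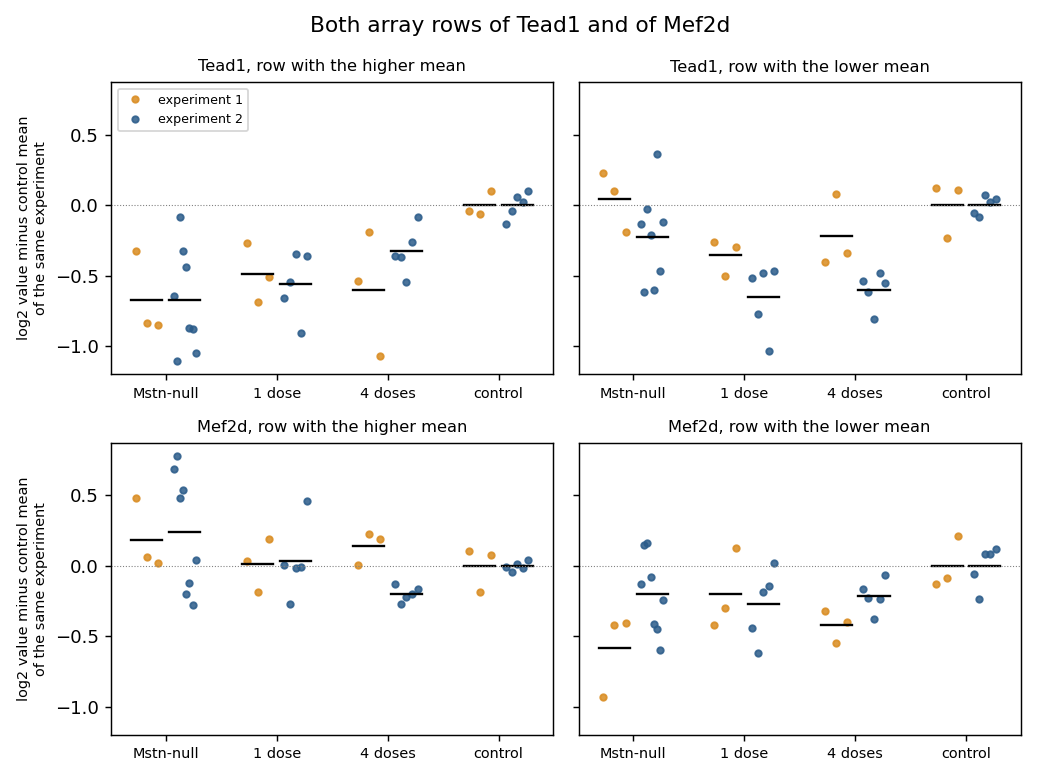
Both array rows of Tead1 (top) and of Mef2d (bottom) as log2 value minus the control mean of the same experiment, by class; orange points are experiment 1, blue points experiment 2 and black bars group means. For Tead1 the Mstn-null means lie below 0 in both experiments in the higher row. In the lower row they lie at 0.045 in experiment 1 and at -0.23 in experiment 2. For Mef2d the Mstn-null means lie above 0 in the higher row and below 0 in the lower row.

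Sox6, an SRY-related repressor of slow-fibre genes, was measured in experiment 1 at 8.88, 8.53 and 8.33 in Mstn-null mice, 8.00, 7.71 and 8.27 after 1 dose, 8.35, 8.28 and 8.38 after 4 doses, and 8.16, 7.80 and 8.03 in controls. Mstn-null mice and mice given 4 doses lay wholly above the controls, as did 11.6% and 5.78% of all genes, and mice given 1 dose overlapped them. In experiment 2, Sox6 ranged from 9.42 to 10.39 in Mstn-null mice (median 10.00, n = 8), was 9.63, 9.65, 9.56, 9.62 and 9.63 after 1 dose and 9.53, 9.32, 9.44, 9.48 and 9.48 after 4 doses, and was 9.60, 9.71, 9.77, 9.95 and 9.69 in controls. Here the mice given 4 doses lay wholly below the controls, as did 2.8% of all genes, and the Mstn-null mice spread across the control range. The mice given 4 doses lay wholly above those given 1 dose in experiment 1, as did 7.51% of all genes, and wholly below them in experiment 2, as did 0.908%.

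Sox6 rose by 0.36 ± 0.11 in Mstn-null muscle over both experiments (1.28-fold, adjusted p = 0.00832), by 0.58 ± 0.17 in experiment 1 (adjusted p = 0.0480, where 3.48% of all genes were called) and, short of the threshold, differed by 0.23 ± 0.12 in experiment 2 (adjusted p = 0.0999). The call in experiment 1 ended when that experiment was fitted on its own (adjusted p = 0.0761). The call over both experiments ended when arrays were centred on their medians (0.25, adjusted p = 0.0619) and with the interquartile range as a covariate (0.28, adjusted p = 0.278). After 1 dose the difference from control was -0.08 ± 0.11. After 4 doses it was 0.34 ± 0.17 in experiment 1 and -0.30 ± 0.13 in experiment 2, neither of them called. The difference between those effects, -0.64 ± 0.21, had an unadjusted p of 0.00535 and an adjusted p of 0.398 over all genes. Sox6 was lower than in Mstn-null muscle after 4 doses (-0.41 ± 0.11, adjusted p = 0.00691) and after 1 dose (-0.44 ± 0.11, adjusted p = 0.00427). Both of these calls ended with the interquartile range as a covariate (-0.36, adjusted p = 0.105, and -0.38, adjusted p = 0.0810).

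Of the genes that host or neighbour the Sox6 microRNA pathway, Myh7, the slow myosin gene that carries miR-208b, fell by 2.42 in Mstn-null muscle and by 2.00 after 4 doses. Its adjusted p was 0.000209 in Mstn-null muscle and 0.0171 after 4 doses. Myh7b, the host of miR-499, differed by 0.02 in Mstn-null muscle with no call. The microRNAs themselves were not analysed here. Sp3 and Purb, which in mouse muscle act with Sox6 as repressors or are targets of these microRNAs, fell in Mstn-null muscle by 0.63 and 0.70. None of these 4 genes was called after 1 dose, and none in Mstn-null muscle with the interquartile range as a covariate.

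Eya1, the phosphatase cofactor that makes Six4 and its relatives activators of fast-fibre genes, was measured in experiment 1 at 6.79, 6.44 and 6.50 in Mstn-null mice, 6.53, 5.85 and 6.53 after 1 dose, 6.21, 6.56 and 6.14 after 4 doses, and 6.21, 5.76 and 6.38 in controls. In experiment 2, Eya1 ranged from 8.47 to 8.71 in Mstn-null mice (median 8.54, n = 8), was 8.07, 8.42, 8.47, 8.50 and 8.31 after 1 dose and 8.69, 8.28, 8.18, 8.27 and 8.33 after 4 doses, and was 8.46, 8.40, 8.43, 8.43 and 8.29 in controls. Eya1 was the 1 member whose Mstn-null arrays lay wholly above the controls in both experiments, as did 1.4% of all genes. After 1 dose and after 4 doses it overlapped the controls in both.

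Eya1 rose by 0.26 ± 0.09 in Mstn-null muscle (1.19-fold, adjusted p = 0.0213). The difference was 0.46 ± 0.16 in experiment 1 (adjusted p = 0.0952) and 0.15 ± 0.11 in experiment 2 (adjusted p = 0.245). The call held with the interquartile range as a covariate and ended with median centring (0.15, adjusted p = 0.249), with array weights (0.18, adjusted p = 0.0607) and without control array 2 of experiment 1 (0.19, adjusted p = 0.0607). After 1 dose and after 4 doses Eya1 differed from control by 0.04 ± 0.10 in each.

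Six4, a homeodomain partner of Eya1, was called in none of the 6 comparisons. Its class means spanned 6.45 to 6.64 in experiment 1 and 8.05 to 8.28 in experiment 2. The Mstn-null difference was 0.09 (95% interval -0.08 to 0.27), the 1-dose difference 0.10 (-0.08 to 0.29) and the 4-dose difference -0.09 (-0.27 to 0.10). Mice given 4 doses read 0.19 lower than mice given 1 dose, at an unadjusted p of 0.0491 and an adjusted p of 0.670. With quantile normalization Six4 was called higher in Mstn-null muscle than in control (0.23, adjusted p = 0.0241) and lower after 4 doses than in Mstn-null muscle (-0.27, adjusted p = 0.0166). Fitted on experiment 2 alone, that difference from Mstn-null muscle was -0.23 (adjusted p = 0.0419).

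The MEF2 factors are MADS-box activators of contractile and metabolic genes. In the row that stood for each gene, none was called against control over both experiments in the deposited values. The lower row of Mef2d was called lower in Mstn-null muscle, and other scalings called Mef2c and the higher row of Mef2d there, as given below. Mef2a differed by 0.02 (95% interval -0.20 to 0.24) in Mstn-null muscle, by -0.02 (-0.25 to 0.21) after 1 dose and by 0.05 (-0.19 to 0.28) after 4 doses. Mef2a in Mstn-null mice differed by 0.47 in experiment 1 and by -0.19 in experiment 2; the difference between them, -0.66, had an adjusted p of 0.0720. Mef2c had the widest spread within any group, an SD of 0.50 in the Mstn-null mice of experiment 2.

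Mef2c in experiment 1 read 10.02, 9.60 and 9.45 in Mstn-null mice, 9.75, 8.99 and 9.56 after 1 dose, 9.37, 9.76 and 9.16 after 4 doses, and 9.69, 9.17 and 9.60 in controls, with all classes overlapping. In experiment 2 Mef2c was 10.74, 10.09, 11.33, 11.17, 11.35, 10.95, 11.31 and 10.24 on the 8 Mstn-null arrays, 11.31, 11.31, 11.39, 10.89 and 11.19 after 1 dose, 11.47, 11.41, 11.43, 11.40 and 11.33 after 4 doses, and 11.41, 11.47, 11.46, 11.50 and 11.39 in controls. The Mstn-null mice and the mice given 1 dose lay wholly below the controls there, as did 5.52% and 2.94% of all genes. In experiment 2 Mef2c fell by 0.55 ± 0.17 in Mstn-null muscle (adjusted p = 0.00975), where 45.6% of all genes were called. In experiment 1 the difference was 0.20 ± 0.24, and the difference between experiments, -0.75, had an adjusted p of 0.136. Over both experiments it was -0.32 ± 0.15 (adjusted p = 0.0855). Without control array 2 of experiment 1 it was -0.38 (adjusted p = 0.0382), and without Mstn-null array 1 of experiment 1 it was -0.40 (adjusted p = 0.0247). With median centring it was -0.42 (adjusted p = 0.0395), and with quantile normalization -0.16 (adjusted p = 0.350).

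Mef2d in its higher row was 10.24, 10.33, 10.03, 10.09, 9.35, 9.43, 9.27 and 9.60 on the 8 Mstn-null arrays of experiment 2, against 9.55, 9.51, 9.57, 9.54 and 9.60 in controls. Arrays 1 to 4 were above every control and arrays 5 to 7 below every control, so few arrays lay near the mean of this group. After 4 doses Mef2d was 9.42, 9.29, 9.33, 9.36 and 9.39 in that experiment, wholly below the controls, as were 2.8% of all genes. Over both experiments the Mstn-null difference was 0.23 ± 0.12 (adjusted p = 0.100) and the 4-dose difference -0.07 ± 0.12. Without Mstn-null array 7 of experiment 2 the first was 0.28 (adjusted p = 0.0471), and with quantile normalization it was 0.43 (adjusted p = 0.0102).

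The lower row of Mef2d had the opposite sign in Mstn-null muscle, where it fell by 0.32 ± 0.10 (adjusted p = 0.0159), as 17% of the rows with a single symbol were called lower. Its values there were 5.25, 5.75 and 5.77 against 6.05, 6.09 and 6.39 in controls of experiment 1, wholly below them as were 13.9% of all genes, and 6.55 to 7.31 (median 6.96, n = 8) against 7.09, 6.91, 7.23, 7.23 and 7.27 in controls of experiment 2. The higher row minus the lower row grew by 0.61 in Mstn-null muscle (exact permutation p = 0.000117, adjusted 0.000699). It grew by 0.26 after 1 dose (exact p = 0.0123, adjusted 0.0246) and by 0.29 after 4 doses (exact p = 0.0524, adjusted 0.0786). In experiments 1 and 2 it grew by 0.77 and 0.44 in Mstn-null muscle and by 0.21 and 0.31 after 1 dose. After 4 doses it grew by 0.56 in experiment 1 but by 0.02 in experiment 2. The rows thus give no single direction for Mef2d in Mstn-null muscle.

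Nfatc1, the calcineurin-dependent factor known for its part in slow-fibre gene expression, also split the Mstn-null mice of experiment 2. There it read 8.28, 8.16, 7.90, 7.85, 7.49, 7.59, 7.36 and 7.74 in Mstn-null mice, 7.54, 7.48, 7.49, 7.57 and 7.56 after 1 dose, 7.61, 7.33, 7.28, 7.40 and 7.37 after 4 doses, and 7.44, 7.52, 7.53, 7.62 and 7.49 in controls. Arrays 1 to 4 and array 8 were above every control. In experiment 1 Nfatc1 was 6.23, 6.27 and 6.21 in Mstn-null mice, wholly below the 6.40, 6.31 and 6.32 of the controls, as were 13.9% of all genes.

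Nfatc1 rose by 0.28 ± 0.10 in Mstn-null muscle of experiment 2 (adjusted p = 0.0270), differed by -0.10 ± 0.15 in experiment 1, and by 0.16 ± 0.09 over both (adjusted p = 0.135), or by 0.26 with quantile normalization (adjusted p = 0.0392). The difference between experiments, 0.38, had an adjusted p of 0.203. After 1 dose and after 4 doses the differences from control were 0.00 ± 0.10 and -0.08 ± 0.10. Against Mstn-null muscle Nfatc1 was lower after 4 doses (-0.25 ± 0.09, adjusted p = 0.0479), but the call ended with median centring (-0.18, adjusted p = 0.195), with the interquartile range as a covariate (-0.28, adjusted p = 0.148), with only those 2 classes in the fit (-0.24, adjusted p = 0.152), with array weights (-0.20, adjusted p = 0.0503) and with a trended, robust fit (adjusted p = 0.0514). The difference was 0.084, with the sign turned, in experiment 1, and the call held in 10 of 35 fits that each left out 1 array.

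Tbx15, a T-box factor of fast glycolytic fibres, was called in no comparison of the deposited values. Its Mstn-null difference was 0.14 (95% interval -0.09 to 0.37), or 0.34 with quantile normalization (adjusted p = 0.00748), with 0.07 (-0.18 to 0.31) after 1 dose and 0.04 (-0.21 to 0.28) after 4 doses. In experiment 1 Tbx15 read 9.02, 8.49 and 8.72 in Mstn-null mice against 8.41, 7.72 and 8.54 in controls, and in experiment 2 the Mstn-null range of 10.05 to 10.69 contained the control range.

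**Figure D4:**
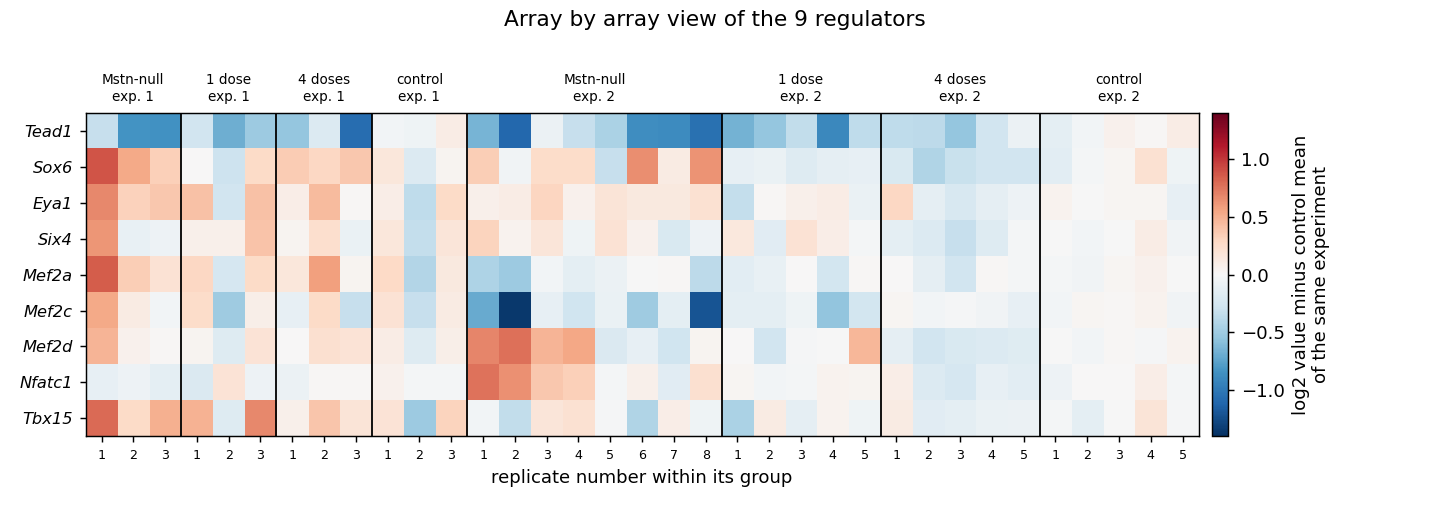
Each of the 35 arrays as a column and each regulator as a row; colour is the log2 value minus the control mean of the same experiment, red above and blue below. The 8 Mstn-null columns of experiment 2 differ among themselves in Mef2c, Mef2d, Tead1, Sox6 and Nfatc1 (SD 0.50, 0.42, 0.36, 0.33 and 0.32). The 5 control columns beside them stay pale.

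Between the treated and the Mstn-null mice, 2 of 9 members differed after 4 doses (Sox6 and Nfatc1, both lower), where 20.2% of all genes were called (8.75% lower), and 1 of 9 after 1 dose (Sox6, lower), where 16.8% were called (5.9% lower). Within experiment 2, 4 of 9 differed between 4 doses and Mstn-null, where 30.1% of all genes were called: Mef2c was higher (0.51), and Mef2d (-0.44), Sox6 (-0.53) and Nfatc1 (-0.40) were lower. In the same experiment 1 member, Sox6 (-0.36), was lower after 1 dose than in Mstn-null muscle, where 14.8% of all genes were called. In experiment 1 no member was called between 4 doses and Mstn-null, where 0.0652% of all genes were, and all 9 had an unadjusted p above 0.05. Between 1 dose and Mstn-null none was called in experiment 1 either, where 2.11% of all genes were, with Sox6 at -0.58 (unadjusted p = 0.00151, adjusted p = 0.0601) and Mef2a at -0.36 (unadjusted p = 0.0430, adjusted p = 0.350). Of the 9 members none differed between 4 doses and 1 dose, where 0.321% of all genes were called, and 1 (Six4) had an unadjusted p under 0.05. The change from control differed between the experiments in no member by its own test, where 1.68% of all genes differed in that of Mstn-null mice, 0% in that of 1 dose and 0.00502% in that of 4 doses. These comparisons share the control or the Mstn-null arrays.

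Markers of other cells in the muscle moved with some of these classes, and their part in the members' values was not tested. Of 10 endothelial markers 5 were lower in Mstn-null muscle, and their median difference was -0.29. Their mean level ranged over 5.90 to 6.06 in Mstn-null mice against 6.13 to 6.53 in controls of experiment 1. In experiment 2 it ranged over 7.32 to 8.13 against 7.97 to 8.06. The mean level of 7 fibro-adipogenic progenitor and fibroblast markers after 4 doses was 7.44 to 7.92 in experiment 1, against 7.28 to 7.93 in controls. In experiment 2 it was 9.94 to 10.25 against 9.18 to 9.68. Of 10 macrophage markers 6 were higher in Mstn-null muscle and 6 after 4 doses. Of 8 markers of the fibres themselves 2 were higher and 1 was lower in Mstn-null muscle. Of all genes, 25.4% were called higher and 16.4% lower in Mstn-null muscle, and 1.91% higher after 4 doses.

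The genes around the regulators were taken as lists, and each count below stands beside the share of all genes called. In Mstn-null muscle 41.8% of all genes were called (25.4% higher, 16.4% lower). After 1 dose 0.542% were called higher and 0.572% lower, and after 4 doses 1.91% higher and 1.23% lower. Of 18 genes of calcineurin and NFAT signalling, Mstn-null muscle had 6 lower and 1 higher (median difference 0.08, beside 0.09 over all genes). None was called after 1 dose, and 2 fell after 4 doses. Myoz2, a calcineurin-binding protein of slow fibres, fell by 2.55 in Mstn-null muscle and by 1.34 after 4 doses. It is counted again among the slow-fibre contractile genes below, as Myoz1 of this list is among the fast-fibre ones. Rcan2, a calcineurin inhibitor, fell by 0.56 in Mstn-null muscle and by 0.42 after 4 doses. The calcineurin subunits Ppp3r1 and Ppp3ca fell by 0.52 and 0.53 in Mstn-null muscle, and Nfatc2 was the 1 gene that rose there, by 0.32. The balance of directions in Mstn-null muscle depended on the scaling, with 4 lower and 5 higher after quantile normalization, 6 lower and none higher with median centring, and 1 lower and none higher with the interquartile range as a covariate.

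In the list of MEF2 cofactors, kinases and class IIa deacetylases, 7 of 18 genes rose in Mstn-null muscle and none fell (median 0.19), 3 rose after 1 dose and 1 after 4 doses. Mamstr, a MEF2 coactivator of skeletal muscle, rose by 0.37 in Mstn-null muscle, by 0.74 after 1 dose (adjusted p = 3.02e-05) and by 0.49 after 4 doses. Sik1, a kinase that acts on class IIa deacetylases, rose by 0.54 in Mstn-null muscle and by 0.47 after 1 dose. Ncoa2 and Crebbp, coactivators, rose by 0.34 and 0.44 in Mstn-null muscle, and Camk2d, a calcium-dependent kinase, rose by 0.30 after 1 dose. In Mstn-null muscle 4 of the 18 were called higher with median centring, 8 with quantile normalization and 4 with the covariate, and none lower.

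Among 7 measured relatives of Six4 and Eya1 and their Dach cofactors (median 0.18 in Mstn-null muscle), Six2, Six5 and Eya2 rose in Mstn-null muscle by 0.59, 0.25 and 0.18, and Dach2, a corepressor that works with these factors, fell by 0.41. None of the 7 was called after 1 dose or 4 doses. With the covariate none of the 7 was called in Mstn-null muscle, and with median centring 1 was called higher and 1 lower.

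Among 15 TEAD cofactors and Hippo pathway genes (median 0.07 in Mstn-null muscle), Vgll3, Tead4 and Wwtr1 rose in Mstn-null muscle by 0.49, 0.32 and 0.22, and Ankrd1 and Vgll2 fell by 0.97 and 0.38. Vgll proteins are cofactors that bind TEAD factors, Vgll2 being the one known for slow-fibre genes in mouse. Ccn1, a known target of YAP and TEAD, fell by 0.72 after 1 dose and by 0.73 after 4 doses, and Vgll3 rose by 0.26 after 4 doses. In Mstn-null muscle 2 were called higher and none lower with the covariate, 2 higher and 2 lower with median centring, and 4 higher and 1 lower with quantile normalization.

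Among 27 other regulators of fibre type, 5 rose and 4 fell in Mstn-null muscle (median -0.01), 1 rose and 3 fell after 1 dose, and 4 fell after 4 doses. Esrrg, a nuclear receptor of oxidative fibres, fell by 0.75 in Mstn-null muscle and by 0.57 after 4 doses. Trim63, a ubiquitin ligase, fell by 0.60, 0.93 and 0.87 in the 3 comparisons with control, and Thrb, a thyroid hormone receptor, by 0.39 after 1 dose and 0.40 after 4 doses. Sox5 and Sox13, the SoxD relatives of Sox6, rose by 0.22 and 0.28 in Mstn-null muscle. With median centring 1 was called higher and 7 lower there, with quantile normalization 4 higher and 2 lower, and with the covariate none higher and 1 lower.

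Contractile genes of slow fibres had larger differences. Of 13 slow-fibre genes 12 fell in Mstn-null muscle, with a median difference of -2.00, and 10 fell after 4 doses, with a median of -1.43. After 1 dose none was called, at a median of -0.76. Myl2, a slow myosin light chain, fell by 3.03 in Mstn-null muscle and by 1.98 after 4 doses, and Atp2a2, the slow-fibre calcium pump, by 1.96 and 1.39. With the interquartile range as a covariate 2 slow genes were called lower in Mstn-null muscle and 4 after 4 doses, at medians of -1.17 and -1.16. Of 15 fast-fibre genes (median -0.01) Mstn-null muscle had 1 higher and 3 lower, among them Myh2 (-1.30) and Myh1 (-0.42), and 3 rose after 4 doses, among them Myl1 (0.34) and Mylpf (0.28). In Mstn-null muscle 6 fast genes were called lower with median centring and none higher, 6 lower and 1 higher with quantile normalization, and none with the covariate.

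**Figure D5:**
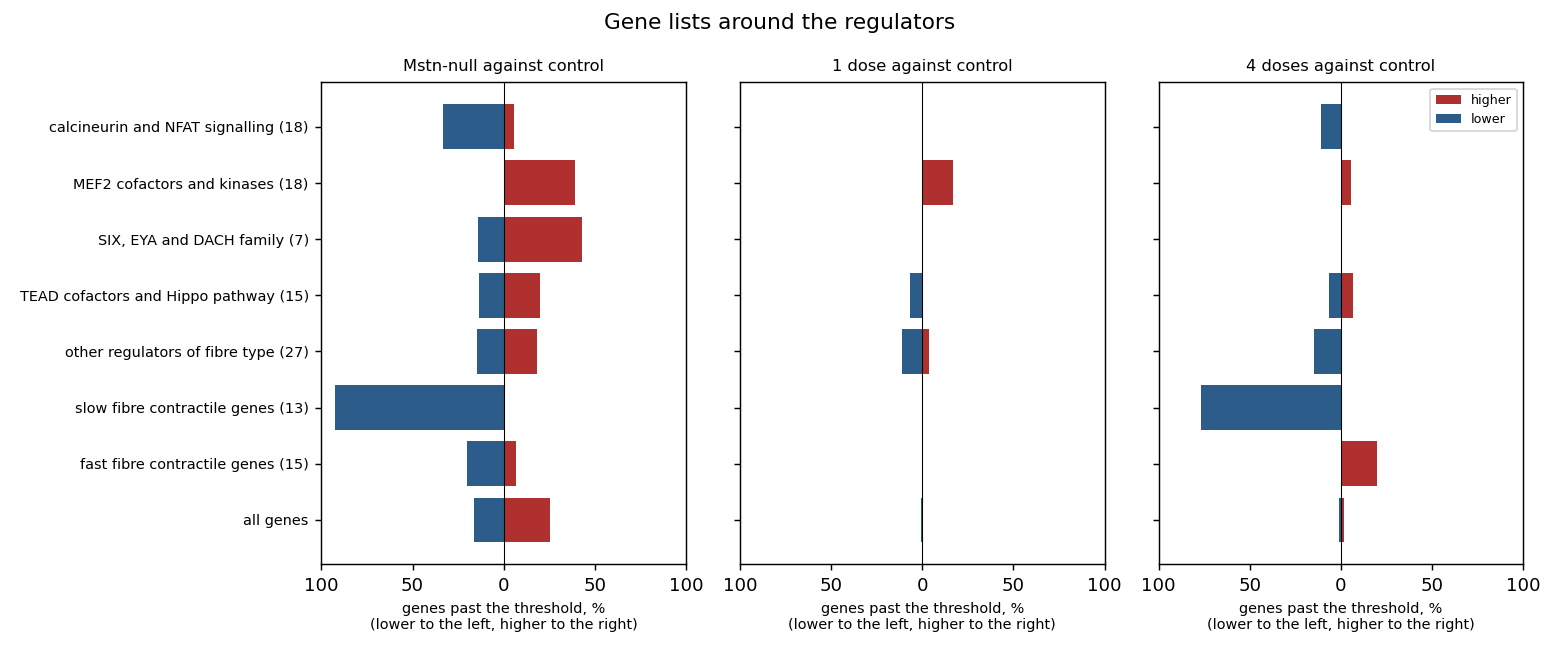
Percent of measured genes in each list called higher (red, to the right) or lower (blue, to the left) against control for Mstn-null, 1 dose and 4 doses; the number of genes is in brackets and the bottom bar is all genes. Slow fibre contractile genes carry the longest bars, to the left, in the Mstn-null and 4-dose panels. Myoz1 and Myoz2 stand in more than 1 list.

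Across the 35 arrays, after each experiment's mean was subtracted, the members with the closest pattern to each other were Eya1 and Tbx15 (Pearson r = 0.78), Mef2a and Mef2c (r = 0.76), and Mef2d and Nfatc1 (r = 0.75). Mef2c and Nfatc1 ran opposite ways (r = -0.64). Within the 8 groups, with their means removed, these correlations were 0.79, 0.81, 0.71 and -0.47. Eya1 and Tbx15 had r = 0.96 in experiment 1 and 0.43 in experiment 2, and Mef2a and Mef2c had 0.90 and 0.81. Mef2d and Nfatc1 had r = -0.31 in experiment 1 and 0.88 in experiment 2, so their likeness was seen in experiment 2 alone, and Mef2c and Nfatc1 had -0.54 and -0.67. Arrays share classes and array-wide spread, so these are descriptions.

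Among 16938 genes compared, those most like Tead1 were Jam2, Zbtb18 and Ceacam1 (r = 0.88, 0.87 and 0.86 over 35 arrays). Those most like Sox6 were Birc6, Ncoa2 and Cep350 (r = 0.92, 0.92 and 0.91). For Nfatc1 they were Nup214, Kmt2d and Speg (r = 0.92, 0.90 and 0.90), with r = 0.33, 0.66 and 0.72 in experiment 1 alone. For Eya1 they were Tbx15, Ndrg3 and Heatr1 (r = 0.78, 0.77 and 0.76), with r = 0.43, 0.61 and 0.59 in experiment 2 alone. The genes named for Tead1 and Sox6 had r of at least 0.77 in each experiment.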

How the data were processed

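Quadriceps RNA of 35 mice, labelled with a whole-transcript sense target assay, was hybridised to Affymetrix arrays. The deposited log2 values were normalised by the authors with RMA, and limma 3.4.4 and R 2.11.1 are named, per the submitters' processing notes; the sources used here do not name the genome build of the probes. Of 35556 rows, 21789 had 1 symbol, 1621 several and 12146 none; the brightest row of each of 19938 genes was kept. Class and experiment were fitted on all arrays with limma 3.58.1 in R 4.3.3 (lmFit, eBayes, two-sided, Benjamini-Hochberg over all genes), and 8 group means for contrasts within and between experiments. In simulated data of the same size, 100 genes were changed by each amount, with independent noise of a single spread per gene. There 80% to 93% of changes of 0.5 and 99% to 100% of changes of 1 were recovered, with 7 to 16 false calls. Spread that differs between arrays or classes was not simulated, so these rates need not hold for the members. The members and lists were chosen with earlier results of these data known. From each list, up to 4 genes with the smallest p per comparison were named; Nfatc2, Wwtr1 and the genes of called counts outside that rule were named after their values were seen. The number of arrays limits the precision, and mice sharing a litter are not marked in the labels. Alternatives are given in the closing section.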

Additional observations from a re-analysis of the deposited data

Results flagged for a closer look

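Sox6 drew attention because every mouse given 4 doses lay above every control in experiment 1 and below every control in experiment 2. The change after 4 doses in experiment 2 minus that in experiment 1 was -0.64 against control (limma, unadjusted p = 0.00535, adjusted p = 0.398 over all genes), and -0.51 against 1 dose, a difference that was not tested. No array stood apart from its group in the 36 groups of member values that could be examined.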

How the results depend on the processing

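Counts of members called moved with the setting as follows. Quantile normalization within each experiment gave 7 in Mstn-null against control (28.8% of all genes called), 1 in 4 doses against control (2.8%), 5 in 4 doses against Mstn-null (15.7%) and 2 in 1 dose against Mstn-null (14.9%). The interquartile range covariate gave 1 in Mstn-null against control (2.99%) and 1 in 4 doses against Mstn-null (1.98%). Median centring gave 1 in 4 doses against Mstn-null (16.7%) and 2, Tead1 and Mef2c, in Mstn-null against control (29.5%). In 4 doses against control, 1 member (Tead1) was called with the filter on dim genes, the mean of a gene's rows, only the compared classes, array weights and the replicate block. In 4 doses against Mstn-null, 1 was called with only the compared classes, with trend and robust, and with the replicate block. With experiment 1 alone, 0 were called between Mstn-null and control, between 1 dose and control, and in either treated class against Mstn-null. With experiment 2 alone, 0 were called in 1 dose against control and 5 in 4 doses against Mstn-null. Chosen after seeing the data, leaving out Mstn-null arrays 2, 6, 7 and 8 or arrays 1 to 4 of experiment 2 gave 1 in 4 doses against Mstn-null, and leaving out arrays 5 to 8 gave 2 in 1 dose against Mstn-null. Leaving out each of the 35 arrays gave 3 to 4 in Mstn-null, 0 to 1 after 1 dose, 0 to 1 after 4 doses, 1 to 4 in 4 doses against Mstn-null, and 0 to 1 for the Mstn-null difference between experiments. Some of these settings use fewer arrays or genes, and the cause of the moved counts was not tested. Signs turned for Nfatc1 in 4 doses against Mstn-null with experiment 1 alone (0.084) and with the other row for Mef2d in Mstn-null against control (-0.32) and for Tead1 in 4 doses (-0.33) and 1 dose (-0.41) against Mstn-null. Same-numbered replicates did not deviate together (correlations between -0.60 and 0.41), which gives no sign that the numbers pair mice but cannot settle it. Mstn-null arrays 6, 7 and 8 of experiment 2 had no same-numbered array in another class, so they add nothing to the differences in the block fit. With the replicate block the adjusted p in Mstn-null against control was 0.0548 for Sox6, 0.0568 for Eya1 and 0.0349 for Mef2d. In 4 doses against Mstn-null it was 0.0552 for Sox6, 0.0565 for Nfatc1 and 0.0380 for Mef2d.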
